A study of Mus musculus with 12 samples.

Results

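The genes described here are 9 that mark megakaryocytes and platelets: Itga2b, Itgb3, Gp1bb, Gp9, Gp5, Gp6, Vwf, Pf4 and Fli1. They were picked by symbol, with no threshold on their values, and are 9 of the 55450 genes in the deposited count table. RNA was measured by sequencing in mouse bone marrow progenitors that carried the receptor Kit and no lineage markers (LK cells). The cells descended from the donor marrow of competitive transplants, in which the test marrow shares its host with competitor marrow. There were 12 libraries with 4 genotype labels and 3 libraries each: WT, with neither gene knocked out; Tet2KO, knocked out for Tet2, which encodes a DNA dioxygenase often lost in clonal hematopoiesis; Id1KO, knocked out for Id1, which encodes an inhibitor of helix-loop-helix transcription factors; and dKO, knocked out for both. All 4 groups share the transplant, the tissue and the sort. Strain, age, the design of the alleles, any Cre driver and the time after transplant are not given in the sources used here. Titles give the 3 libraries of a genotype a single sample number, so they may be repeats of 1 cell sample, and each test below compares these libraries. The design asks how transcripts shift with each knockout and whether the shift with Id1 loss differs when Tet2 is lost.

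Megakaryocytes arise in the marrow from stem cells and from progenitors that can also become red cells, and they shed platelets into the blood. Their surface carries the fibrinogen receptor, the integrin pair encoded by Itga2b (CD41) and Itgb3 (CD61), and the glycoprotein Ib-IX-V complex, which binds the adhesive protein encoded by Vwf and includes the products of Gp1bb, Gp9 and Gp5. Gp6 encodes the platelet receptor for collagen, Pf4 a chemokine stored in alpha granules, and Fli1 an ETS factor that acts with GATA and RUNX factors on platelet genes. Several of these genes are also read early: Itga2b, Vwf and Pf4 are transcribed in stem cells with a bias to platelets, Itga2b also in mast cells and early progenitors, Vwf in endothelium, and Fli1 across blood progenitors and endothelium.

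Genotypes are named here by label only, since the targeted genes went against the labels. With levels in CPM (counts scaled to the size of each library) as mean ± SD over n = 3 libraries, Tet2 stood at 130 ± 2.51 for Tet2KO and 118 ± 3.08 for dKO, above the 99.3 ± 2.2 of WT and the 91.9 ± 1.55 of Id1KO. Id1 had 1.47 ± 0.268 CPM in WT but 3.96 ± 0.341 in Id1KO and 3.93 ± 0.501 in dKO, with 3.86 ± 0.421 in Tet2KO. Which part of each gene the alleles remove is not given in the sources used here, so counts over the whole gene may not show the deletion. Kit, the receptor of the sort, ranged from 315 ± 1.15 CPM in Id1KO to 365 ± 11.1 in Tet2KO. Of 10 genes of lineage markers, Cd3e, Cd4, Cd8a, Ms4a1 and Ly6g had fewer than 10 counts in every library, and Cd79a and Klrb1c had group means under 2 CPM. Itgam, which encodes the myeloid marker CD11b, was present at 25.1 ± 1.54 CPM in dKO to 34.1 ± 1.53 in Tet2KO, and Nkg7, a gene of cytotoxic lymphocytes, at 117 ± 4.68 in dKO to 149 ± 0.89 in Tet2KO. Library totals ran from 15706407 to 19959183 estimated counts, and 14346 genes had enough counts to be tested. Of the 9 megakaryocyte and platelet genes 8 could be tested, all but Gp6. Pairs of libraries of 1 genotype differed by more than counting error alone in 12 of 12 cases, so none was counted as a copy of another. That does not show whether they came from separate cell samples.

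The sequence upstream of the start was read for the members with an entry in the RefSeq promoter table of GRCm38.p6, which were 6 of 9: Itga2b, Gp1bb, Gp9, Gp5, Gp6 and Pf4. Those of Pf4, Gp9, Gp5 and Gp6 are shown because Pf4, Gp9 and Gp5 follow different patterns in the results and Gp6 is close to absent. GATA, ETS and RUNX factors are known to act at sites like those marked. Each covers the 250 bases before the annotated start, 5′ to 3′ on the gene's strand, with the matches in capitals. Both strands were searched. GATA matches were the letters AGATAA or else the letters TGATAA. ETS matches were the letters AGGAAG or else the letters AGGAAA, and the same with C in place of the leading A, which gives CGGAAG or else the letters CGGAAA. RUNX matches were the letters TGTGGT.
Pf4, chr5:90772185-90772434, plus strand: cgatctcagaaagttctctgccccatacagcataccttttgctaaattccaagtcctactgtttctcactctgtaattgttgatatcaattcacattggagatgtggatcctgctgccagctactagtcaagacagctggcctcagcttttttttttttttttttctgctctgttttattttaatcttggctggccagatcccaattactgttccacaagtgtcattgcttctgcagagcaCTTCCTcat
Gp9, chr6:87777820-87778069, plus strand: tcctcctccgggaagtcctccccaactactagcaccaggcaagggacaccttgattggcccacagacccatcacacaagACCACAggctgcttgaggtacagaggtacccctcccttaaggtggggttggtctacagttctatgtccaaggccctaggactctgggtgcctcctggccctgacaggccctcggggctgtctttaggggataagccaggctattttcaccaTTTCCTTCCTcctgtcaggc
Gp5, chr16:30310782-30311031, minus strand: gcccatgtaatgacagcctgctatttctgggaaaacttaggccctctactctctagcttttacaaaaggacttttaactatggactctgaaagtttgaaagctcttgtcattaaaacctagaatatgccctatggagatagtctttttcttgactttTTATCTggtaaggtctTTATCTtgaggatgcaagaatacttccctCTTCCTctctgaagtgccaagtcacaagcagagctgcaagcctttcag
Gp6, chr7:4397745-4397994, minus strand: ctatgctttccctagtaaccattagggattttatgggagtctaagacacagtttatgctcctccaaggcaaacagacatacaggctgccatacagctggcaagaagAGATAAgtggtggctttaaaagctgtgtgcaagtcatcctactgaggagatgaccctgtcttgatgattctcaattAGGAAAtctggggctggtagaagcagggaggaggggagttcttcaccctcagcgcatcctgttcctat
The upstream window of Itga2b overlaps an exon of another transcript of the gene, so only the 30 bases around a pair of its ETS matches are shown.
Itga2b, chr11:102469909-102469938, minus strand: gcTTTCCTggagAGGAAGgggaagcagtga

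ETS letters were found in the windows of 6 of 6 members, against 57.2% of the 32817 windows in the table. All 250 bases of the Gp1bb window lay in an exon of Sept5, and 180 bases of the Itga2b window in an exon of Itga2b. In Pf4 the match on the other strand began 9 bases before the start, and in Gp9 AGGAAA and AGGAAG on the other strand overlapped each other 20 and 16 bases before it. GATA letters were found in 2 of 6, Gp5 and Gp6, against 16.6% of all windows. Gp5 held 2 such matches, 93 and 77 bases before the start, and Gp6 held 1, 144 bases before it. RUNX letters were found in Gp9 alone of these 6, against 14.0% of all windows. A match is a description of the letters only, and no binding was measured.

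Compared per kilobase of exon, Pf4 and Fli1 were the most abundant of the 9 genes and Gp6 was close to absent. In WT libraries the levels were 40.6 ± 1.58 CPM per kilobase for Pf4, 34.8 ± 1.59 for Fli1 and 15.4 ± 0.214 for Itga2b. Gp5 (5.99 ± 0.684), Itgb3 (5.26 ± 0.279) and Gp9 (4.46 ± 0.433) followed, then Vwf at 2.32 ± 0.128 and Gp1bb at 0.991 ± 0.174 CPM per kilobase. Gp6 came last at 0.0295 ± 0.0201 CPM per kilobase. The order of the highest 3 was the same in all 4 genotypes except in Tet2KO, where Fli1 (38.2 ± 1.58 CPM per kilobase) stood above Pf4 (36.3 ± 1.65). Pf4 made up 47.1% ± 0.438 of the summed CPM per kilobase of the 9 genes in Id1KO, against 37.0% ± 1.31 in WT, 33.1% ± 1.21 in Tet2KO and 39.6% ± 2.56 in dKO. Summed, the 9 genes took 408 ± 6.07 CPM in Id1KO, against 322 ± 7.82 for WT, 342 ± 6.37 for Tet2KO and 328 ± 9.81 for dKO. In bulk RNA of this kind, fewer cells of a type and less RNA per cell cannot be told apart.

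**Figure D1:**
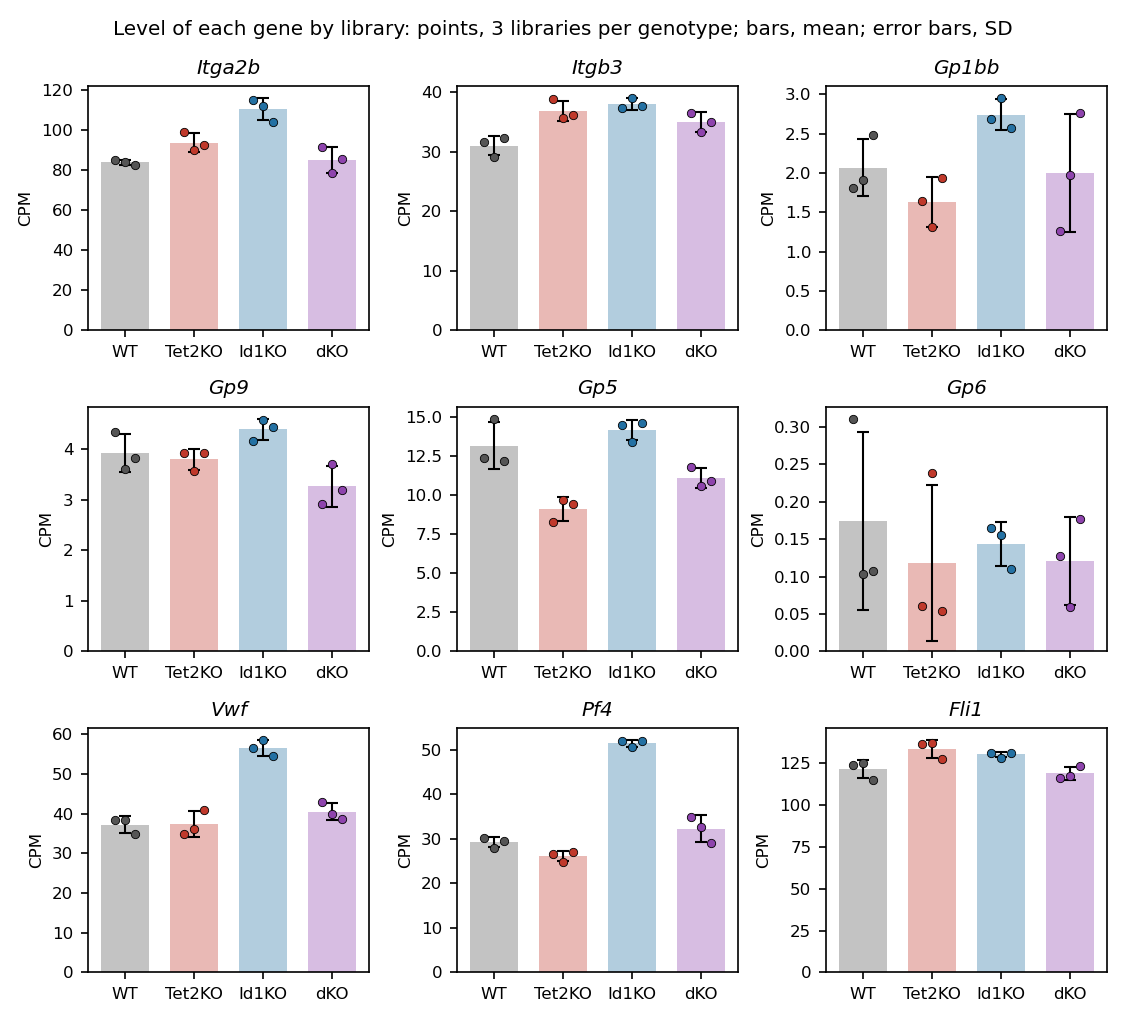
Level in CPM of each of the 9 genes in every library, with points for the 3 libraries of a genotype, bars for their mean and error bars for the SD. The Id1KO libraries stand above all others for Pf4 (50.6 to 52.0 CPM) and Vwf (54.5 to 58.6), the Tet2KO libraries stand below all others for Gp5 (8.27 to 9.70), and Gp6 stays under 0.4 CPM throughout.

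Both chains of the fibrinogen receptor were higher in Tet2KO and in Id1KO than in WT. Itga2b (ENSMUSG00000034664.13, chromosome 11, 102453297 to 102470122 on GRCm38, minus strand, 28 exons) encodes the alpha chain, whose appearance marks entry to the lineage. The WT libraries had 84.9, 83.9 and 82.6 CPM, the Tet2KO libraries 98.8, 89.7 and 92.2, the Id1KO libraries 115, 112 and 104, and the dKO libraries 91.2, 78.6 and 85.2. All Id1KO libraries lay above all others, the Tet2KO libraries above all WT libraries, and dKO overlapped both WT and Tet2KO. Against WT, Itga2b had a log2 fold change of 0.40 ± 0.046 (SE, edgeR adjusted p 6.09e-06) for Id1KO, 0.16 ± 0.048 (0.0149) for Tet2KO and 0.02 ± 0.049 (0.832) for dKO. For dKO it was -0.38 ± 0.047 (7.6e-06) against Id1KO and -0.14 ± 0.049 (0.0407) against Tet2KO. Itga2b thus rose by 31.8% with the Id1KO label beside intact Tet2 and fell by 9.14% with the dKO label beside Tet2KO. The difference of these differences, the interaction, was -0.54 ± 0.067 on the log2 scale (edgeR adjusted p 1.69e-05). The change in Tet2KO against WT did not pass without Tet2KO replicate 1 (0.12, adjusted p 0.0942). That in dKO against Tet2KO did not pass without Tet2KO replicate 1 or 3 or dKO replicate 2 or 3, with adjusted p from 0.0643 to 0.197, or in a fit of only the libraries compared (0.0507).

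Itgb3 (ENSMUSG00000020689.4, chromosome 11, 104608000 to 104670476, plus strand, 16 exons) encodes the beta chain, which also pairs with the alpha chain of the vitronectin receptor. The WT libraries had 31.6, 29.2 and 32.3 CPM, Tet2KO 38.8, 35.6 and 36.1, Id1KO 37.3, 39.1 and 37.7, and dKO 36.6, 33.3 and 35.0. Every library of the other genotypes exceeded every WT library. Over WT, Itgb3 gained 0.25 ± 0.054 on the log2 scale for Tet2KO (edgeR adjusted p 0.00132), 0.29 ± 0.053 for Id1KO (6.78e-04) and 0.17 ± 0.054 for dKO (0.0304). The last did not pass without WT replicate 2 (0.142), dKO replicate 1 (0.116) or dKO replicate 3 (0.0684), with only the libraries compared (0.0553) or by DESeq2 (0.0907). dKO stood at -0.08 ± 0.054 against Tet2KO (adjusted p 0.331) and -0.12 ± 0.053 against Id1KO (0.116), neither of which passed, though the dKO and Id1KO libraries did not overlap. The interaction was -0.37 ± 0.075 (edgeR adjusted p 0.00234): the log2 difference from WT in dKO was smaller than the sum of the differences in Tet2KO and Id1KO. Per kilobase, Itga2b exceeded Itgb3 by a factor of 3.14 ± 0.182 in Id1KO, 2.93 ± 0.173 in WT, 2.75 ± 0.0184 in Tet2KO and 2.63 ± 0.0694 in dKO.

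Among the 3 genes of the receptor for von Willebrand factor, Gp5 was lower in Tet2KO than in WT, and Gp9 and Gp1bb did not pass the test there. Gp5 (ENSMUSG00000047953.7, chromosome 16, 30307685 to 30310779, minus strand, 2 exons) encodes the subunit that thrombin cleaves, and its promoter is the one above with 2 GATA matches. The Tet2KO libraries had 8.27, 9.7 and 9.42 CPM, the dKO libraries 11.8, 10.6 and 10.9, the WT libraries 12.4, 14.9 and 12.2, and the Id1KO libraries 14.5, 13.4 and 14.6. The 3 Tet2KO libraries lay below all 9 others, and the dKO libraries lay between Tet2KO and the remaining groups. Gp5 fell by 0.53 ± 0.094 on the log2 scale from WT to Tet2KO (edgeR adjusted p 2.22e-04). In dKO it was 0.28 ± 0.098 above Tet2KO (0.0417) and at -0.36 ± 0.091 against Id1KO (0.00876). Differences from WT of 0.11 ± 0.087 for Id1KO (0.454) and -0.25 ± 0.092 for dKO (0.0648) did not pass, the second passing with no filter (0.0442). The interaction of 0.17 ± 0.13 did not pass either (adjusted p 0.434). The rise in dKO against Tet2KO did not pass without Tet2KO replicate 1 or 3 or dKO replicate 1 or 3 (adjusted p 0.0669 to 0.165), with a replicate block (0.055) or by DESeq2 (0.0939).

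Gp9 (ENSMUSG00000030054.4, chromosome 6, 87778072 to 87779768, plus strand, 2 exons) encodes a small subunit needed for the complex to reach the surface. It was low, with 46 to 88 counts a library: WT had 4.35, 3.61 and 3.83 CPM, Tet2KO 3.92, 3.57 and 3.93, Id1KO 4.17, 4.58 and 4.45, and dKO 2.91, 3.71 and 3.19. The dKO libraries lay below all Id1KO libraries and overlapped those of the other 2 groups. The log2 fold change of -0.43 ± 0.13 in dKO against Id1KO was the only one to pass (edgeR adjusted p 0.0296), and it did not pass without Id1KO replicate 2 or 3 or dKO replicate 1 or 3 (0.0704 to 0.12), with no filter (0.0546), with only the libraries compared (0.0562) or by DESeq2 (0.147). In Tet2KO, Id1KO and dKO against WT Gp9 stood at -0.05 ± 0.13, 0.16 ± 0.13 and -0.26 ± 0.14 (adjusted p 0.837, 0.44 and 0.211). It stood at -0.22 ± 0.14 in dKO against Tet2KO (0.302), and the interaction was -0.38 ± 0.19 (0.201).

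Gp1bb (ENSMUSG00000050761.4, chromosome 16, 18620317 to 18622403, minus strand, 1 exon) encodes the beta subunit that joins the binding chain to the complex. Its exon shares 1902 bases with exons of Sept5 and 867 with Gm49601 on the same strand, so its estimated counts depend on how reads were split among the 3 genes. WT libraries had 1.81, 1.91 and 2.48 CPM, Tet2KO 1.65, 1.31 and 1.94, Id1KO 2.69, 2.96 and 2.58, and dKO 1.27, 1.97 and 2.77. The Id1KO libraries lay above all WT and Tet2KO libraries, while dKO, from 1.27 to 2.77 CPM, overlapped all 3 other groups. None of the 6 comparisons passed for Gp1bb: the log2 fold changes were 0.41 ± 0.21 in Id1KO against WT (edgeR adjusted p 0.213), -0.44 ± 0.22 in dKO against Id1KO (0.174) and -0.33 ± 0.24 in Tet2KO against WT (0.317). In dKO it stood at -0.03 ± 0.23 against WT (0.946) and 0.30 ± 0.24 against Tet2KO (0.409), with an interaction of -0.12 ± 0.33 (0.863). Summed with Sept5 and Gm49601, the difference in dKO against Id1KO was -0.52 (adjusted p 0.0398), and without dKO replicate 3 Gp1bb alone passed in that comparison at -0.75 (0.0361).

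Gp6 (ENSMUSG00000078810.4, chromosome 7, 4363965 to 4397744, minus strand, 8 exons), the collagen receptor, had 1 to 6 counts in every library and was not tested. Its counts summed to 10 over the 3 WT libraries, 6 over Tet2KO, 8 over Id1KO and 6 over dKO. The exact 95% Poisson intervals of those sums, which cover counting error only, were 4.8 to 18.4, 2.2 to 13.1, 3.45 to 15.8 and 2.2 to 13.1 counts, and overlapped. A difference in Gp6 was not detectable at this depth.

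Pf4 and Vwf, which encode proteins stored in alpha granules, changed most in Id1KO. Pf4 (ENSMUSG00000029373.7, chromosome 5, 90772435 to 90773383, plus strand, 3 exons) had 51.9, 50.6 and 52.0 CPM in the Id1KO libraries. The WT libraries had 30.1, 28.0 and 29.6 CPM, Tet2KO 26.5, 24.8 and 27.1, and dKO 35.0, 32.7 and 29.0. The Id1KO libraries stood far above the 9 others, Tet2KO lay just below WT, and dKO overlapped WT. From WT to Id1KO, Pf4 rose by 0.82 ± 0.056 on the log2 scale (edgeR adjusted p 3.32e-09), a level 76.0% higher, and from Id1KO to dKO it fell by 0.68 ± 0.056 (3.17e-08). The dKO libraries stood 0.30 ± 0.062 above Tet2KO (adjusted p 0.00138), so Pf4 was higher with the Id1-null label on both Tet2 backgrounds, but by less beside Tet2KO: the interaction was -0.52 ± 0.084 (3.01e-04). Tet2KO against WT gave -0.16 ± 0.062 (0.0531) and dKO against WT 0.14 ± 0.06 (0.125), which did not pass. The first of these passed with no filter (0.0268), with only the libraries compared (0.0314), with TMM factors set without mitochondrial and small structural RNA genes (0.0447), and without dKO replicate 1 (0.0418) or 3 (0.033), and the other passed without dKO replicate 3 (0.0177).

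Vwf (ENSMUSG00000001930.17, chromosome 6, 125546774 to 125686679, plus strand, 56 exons) encodes the adhesive protein that the Ib-IX-V complex binds. The Id1KO libraries had 56.5, 58.6 and 54.5 CPM, the WT libraries 38.4, 38.4 and 34.8, the Tet2KO libraries 34.8, 36.2 and 41.0, and the dKO libraries 42.8, 40.0 and 38.5. As for Pf4, the 3 Id1KO libraries stood above the 9 others; the dKO libraries lay above WT by a narrow margin and overlapped Tet2KO. Vwf rose by 0.60 ± 0.057 on the log2 scale from WT to Id1KO (edgeR adjusted p 3.43e-07) and fell by 0.49 ± 0.058 from Id1KO to dKO (3.9e-06). Tet2KO stood at 0.01 ± 0.061 against WT (0.928). For dKO the difference was 0.12 ± 0.06 from WT (0.192) and 0.11 ± 0.061 from Tet2KO (0.207). The last passed without Tet2KO replicate 3 (0.18, adjusted p 0.0445). The interaction was -0.50 ± 0.084 (4.63e-04). Stretches of 100 to 186 bases of the Vwf exons match other genes at 95% identity or more, mostly short gene models, out of 16064 bases of exon.

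Fli1 (ENSMUSG00000016087.13, chromosome 9, 32422204 to 32542861, minus strand, 10 exons), the ETS factor, had the smallest changes of the 8 tested genes, none over 0.16 on the log2 scale between genotypes. WT had 124, 125 and 115 CPM, Tet2KO 136, 137 and 127, Id1KO 131, 128 and 131, and dKO 116, 117 and 123. The dKO libraries overlapped WT and lay below all Tet2KO and Id1KO libraries. Fli1 rose by 0.13 ± 0.037 on the log2 scale from WT to Tet2KO (edgeR adjusted p 0.00802). In dKO it fell by 0.16 ± 0.037 relative to Tet2KO (0.00303) and by 0.12 ± 0.037 relative to Id1KO (0.0232). Differences from WT of 0.10 ± 0.036 for Id1KO (0.0838) and -0.03 ± 0.037 for dKO (0.667) did not pass. The interaction was -0.26 ± 0.052 (0.00227). The change in Tet2KO against WT did not pass without WT replicate 3 (0.0508), and that in dKO against Id1KO did not pass without Id1KO replicate 1 or 3 or dKO replicate 1 or 2 (0.0561 to 0.0906).

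Set side by side, the genotypes ordered these genes in more than 1 way. Id1KO was highest for Itga2b, Itgb3, Gp1bb, Gp9, Gp5, Vwf and Pf4, and Tet2KO for Fli1. For Pf4 and Vwf the step down from Id1KO to dKO passed the test, and the steps below it did not. For Gp5 the steps from Id1KO to WT and from WT to dKO did not pass, and the step from dKO down to Tet2KO did. Id1KO and Tet2KO, which were neighbours for Itga2b, Itgb3 and Fli1, were not compared by a test. The members' patterns over the 12 libraries were also compared with each other by the root mean square difference of their log2 levels, each centred on its own mean. The nearest pairs were Itga2b and Itgb3 (0.109), Itgb3 and Fli1 (0.111), Itga2b and Fli1 (0.14) and Vwf and Pf4 (0.153), and the farthest was Gp1bb and Fli1 (0.384). These are descriptions of genes read in the same libraries.

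In Tet2KO against WT, Itga2b, Itgb3 and Fli1 rose and Gp5 fell, which is 4 of the 8 tested genes called at an adjusted p under 0.05, against 32.8% of all genes tested (16.6% higher and 16.2% lower). The median log2 fold change of the 8 was -0.02, and that of all genes was 0.00 to 2 decimals. In Id1KO against WT, Pf4, Vwf, Itga2b and Itgb3 rose and none fell, 4 of 8 called against 15.0% of all genes tested, of which 7.26% were higher and 7.77% lower. All 8 log2 fold changes were positive, from 0.10 to 0.82, with a median of 0.34 against -0.01 for all genes. In dKO against WT, 1 of 8 was called, Itgb3, against 19.2% of all genes (10.2% higher and 8.97% lower), and the values ran from -0.26 to 0.17.

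Beside Tet2KO, the dKO libraries had more Pf4 and Gp5 and less Itga2b and Fli1, 4 of 8 called against 26.4% of all genes (13.1% higher and 13.4% lower), with a median of 0.02. Beside Id1KO, dKO had less Pf4, Vwf, Gp9, Itga2b, Gp5 and Fli1, 6 of 8 called, against 19.3% of all genes tested (10.6% higher and 8.7% lower). The 8 values ran from -0.68 to -0.12 with a median of -0.40. The interaction passed for Itga2b, Pf4, Vwf, Itgb3 and Fli1, all below 0, which is 5 of 8 against 14.5% of all genes (7.46% above 0 and 7.03% below). Its median over the 8 was -0.38, against 0.01 for all genes. The comparisons share libraries, so these counts are not independent of each other. With the 3 libraries of a genotype summed to 1 value and additive effects of both labels, edgeR called 0 of the 8 genes in each of the 5 pairwise comparisons, with 2 at an unadjusted p under 0.05 in all but dKO against WT, which had 0. In that fit Itga2b turned to -0.11 in Tet2KO against WT and to 0.13 in dKO against Tet2KO, and Fli1 to 0.01 in dKO against Id1KO.

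**Figure D2:**
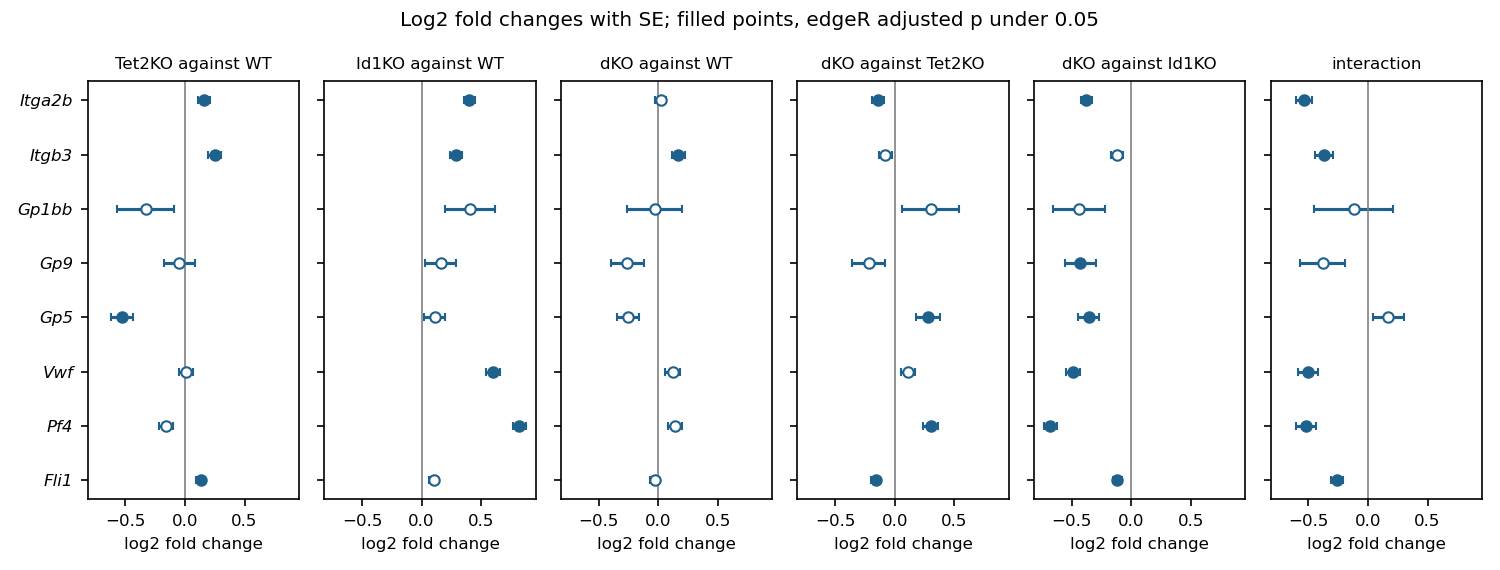
Log2 fold change of the 8 tested genes in each of the 6 comparisons, with bars for the SE and filled points for an edgeR adjusted p under 0.05. Pf4 and Vwf lie farthest to the right in Id1KO against WT (0.82 and 0.60), all 8 lie left of 0 in dKO against Id1KO, and the widest bars belong to Gp1bb (SE 0.21 to 0.33).

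Other genes of the lineage were read from 6 lists of 106 genes: transcription factors, thrombopoietin signalling, surface receptors, alpha granules, cytoskeleton, and activation signalling with eicosanoid enzymes. Of these 99 were tested, and Thpo, which encodes thrombopoietin, was at 0 in every library. Their levels differed widely: in WT Flna, the most abundant, had a mean of 1200 CPM, and Tubb1 had 0.401. The part of other cell types in the calls on these lists was not tested. In Tet2KO against WT 40 of the 99 rose and 12 fell, 52.5% in all against 32.8% of all genes tested (16.6% higher and 16.2% lower), with a median log2 fold change of 0.06. In the marker lists of other cell types described below, the share called in this comparison ran from 37.5% (endothelial) to 94.4% (erythroid). The cytoskeleton list had 7 of 15 higher and 1 lower, among them Flna (0.23 ± 0.027), Myh9 (0.21 ± 0.041) and Tln1 (0.18 ± 0.033), which encode an actin crosslinker, a non-muscle myosin and an activator of integrins. The activation list had 8 of 18 higher and 0 lower, among them Syk (0.21 ± 0.028) and Plcg2 (0.15 ± 0.03), which act below the collagen receptor. The factors split, with 7 of 18 higher, among them Etv6 (0.18 ± 0.03), Runx1 and Nfe2, and 7 lower: Gata1, Gata2, Zfpm1, Tal1, Lmo2, Ldb1 and Gfi1b. Lmo2 (-0.11 ± 0.032) did not pass without WT replicate 2 (adjusted p 0.106), Tet2KO replicate 1 (0.06) or Tet2KO replicate 2 (0.06). Gata1 fell by 0.73 ± 0.043 on the log2 scale. Cbl, which encodes a ubiquitin ligase that limits signalling from cytokine receptors, rose by 0.53 ± 0.036. Gata1 is named here after its values were seen.

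In Id1KO against WT, where Pf4, Vwf, Itga2b and Itgb3 rose, 19 of the 99 genes rose and 8 fell, 27.3% in all against 15.0% of all genes (7.26% higher and 7.77% lower), with a median of 0.03. The marker lists described below ran from 11.1% called (erythroid and lymphoid) to 77.8% (monocyte and dendritic) in this comparison. The alpha granule list had 6 of 19 higher (Mmrn1, Angpt1, Serpine2, Timp3, Rab27b and Slc18a2) and 2 lower (Thbs1 and F13a1). F13a1, a clotting factor chain that monocytes also make, fell by 0.16 ± 0.028. The surface list had 4 of 21 higher (P2ry1, F2r, F2rl2 and Cd9) and 1 lower (Fcer1g), and the cytoskeleton list had 0 of 15 called by edgeR or by DESeq2, with 2 at an unadjusted p under 0.05 by each. The transcription factor list had 5 of 18 higher (Gata2, Zfpm1, Tal1, Cbfb and Cbfa2t3) and 3 lower (Runx1, Erg and Etv6). Gata2, which precedes Gata1 in the lineage, rose from 80.4 ± 7.23 to 93.8 ± 1.04 CPM (0.22 ± 0.044). In dKO against WT, 10 of 99 rose and 11 fell, 21.2% in all, near the 19.2% of all genes, with Cd63, a granule membrane protein, at -0.31 ± 0.044.

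In dKO against Tet2KO, 11 of the 99 rose and 35 fell, 46.5% in all against 26.4% of all genes (13.1% higher and 13.4% lower), with a median of -0.06. The marker lists described below ran from 12.5% called (endothelial) to 88.9% (erythroid) in this comparison. The activation list had 0 of 18 higher and 9 lower, among them Syk (-0.24 ± 0.029) and Rasgrp2 (-0.22 ± 0.031), which activates the integrin through Rap1. The factors split, with 5 of 18 higher (Gata1, Zfpm1, Tal1, Ldb1 and Gfi1b) and 4 lower (Nfe2, Erg, Etv6 and Meis1). Gata1 rose by 0.67 ± 0.044. In dKO against Id1KO 12 rose and 27 fell, 39.4% in all against 19.3% of all genes, and 9 of the 19 alpha granule genes were lower, among them Srgn (-0.28 ± 0.027), whose proteoglycan holds Pf4 in the granule. For the marker lists the share called by edgeR in dKO against Id1KO ran from 0.0% (lymphoid) to 66.7% (erythroid). The interaction passed for 37 of the 99, 6 above 0 and 31 below, 37.4% in all against 14.5% of all genes, with a median of -0.10. The marker lists ran from 0.0% called by edgeR (lymphoid and endothelial) to 83.3% (erythroid) in the interaction. Of the 19 alpha granule genes 9 were below 0 in it and 2 above, F13a1 (0.33 ± 0.039) and Thbs1. Every value with an error in these 3 paragraphs had an edgeR adjusted p under 0.05.

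**Figure D3:**
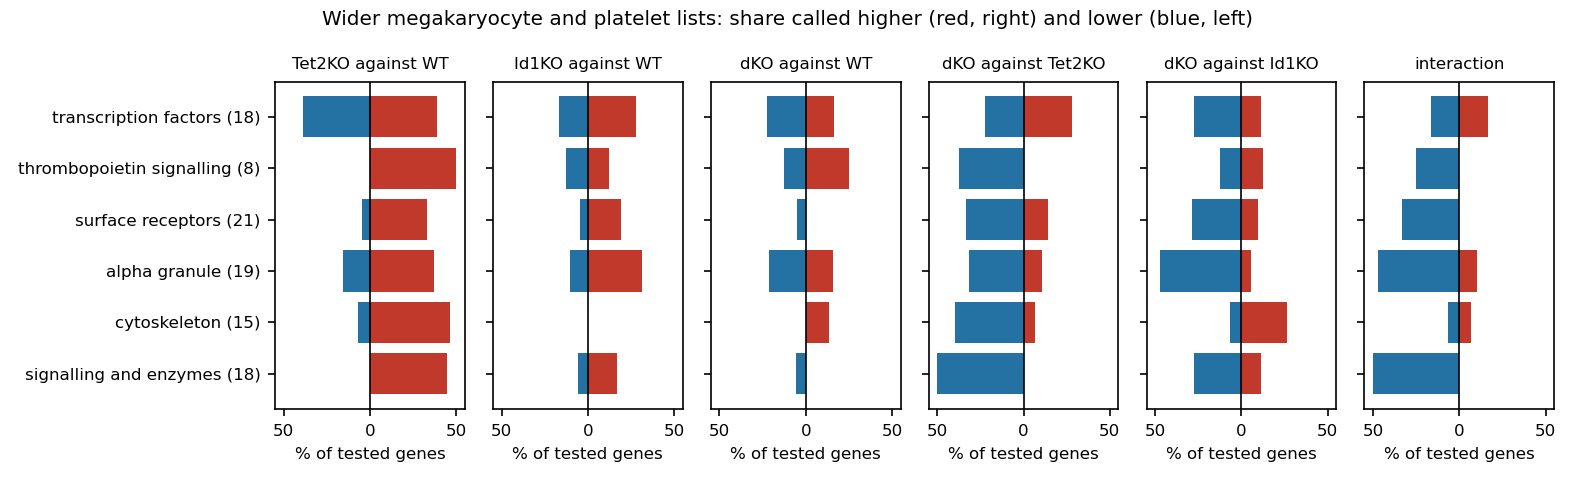
Share of the tested genes of each of the 6 wider lists called higher (red, to the right) and lower (blue, to the left) in each comparison, with the number tested in brackets. The alpha granule list reaches 9 of 19 lower in dKO against Id1KO and in the interaction, and edgeR called 0 of the 15 cytoskeleton genes in Id1KO against WT, with 2 at an unadjusted p under 0.05.

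Beside Gp6, 6 of the 106 genes of the wider lists had fewer than 10 counts in every library but were not at 0 throughout: Tubb1, Mpig6b, P2ry12, Sparc, Pdgfa and Alox12. Tubb1, which encodes the tubulin of platelets, had 1 to 9 counts a library, and Mpig6b, an inhibitory platelet receptor, had 0 to 2. Ppbp, which encodes another alpha granule chemokine and lies in the chemokine family of Pf4, had 1.19 ± 0.354 CPM in Id1KO, 0.627 ± 0.146 in WT, 0.544 ± 0.199 in Tet2KO and 0.281 ± 0.0853 in dKO. That is 3 to 28 counts a library, with all Id1KO libraries above all others. Ppbp fell by 2.04 ± 0.39 on the log2 scale in dKO against Id1KO (edgeR adjusted p 7.78e-04) and stood at 0.91 ± 0.32 in Id1KO against WT, which did not pass (0.0599) but did without Id1KO replicate 2 (1.12, 0.0337) or with a minimum of 10 counts in all 3 libraries of a genotype (0.0483). Tubb1, Mpig6b and Ppbp were chosen for description after their values were seen.

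The genes whose levels followed a member most closely over the 12 libraries were sought among 11870 genes by the same root mean square difference. For Pf4 they were Ehd3, a membrane trafficking gene (0.077), and F2rl2, the thrombin receptor PAR3 (0.104), with 4.81 ± 0.172 CPM in Id1KO, 2.90 ± 0.198 in WT, 2.56 ± 0.262 in Tet2KO and 3.04 ± 0.321 in dKO. Itga2b was followed by Gramd1a (0.069) and Pisd-ps1 (0.077), and Itgb3 by Gramd1a (0.048) and Mepce (0.052). Vwf was followed by Slc45a3 (0.107) and Ccne2 (0.119), and Fli1 by Rassf1 (0.037) and Elf2 (0.041), the last an ETS factor too. Gp5 had Got1 (0.101) and Optn (0.102) nearest, Gp9 had Rapgef5 (0.093) and Lmo4 (0.094), and Gp1bb had Purg (0.204) and Zfp951 (0.218). A small difference comes easily to genes that vary little, such as Fli1, whose own spread about its mean was 0.079.

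Markers of other cell types moved with the genotypes as well. The 18 erythroid genes summed to 1060 to 1070 CPM in Tet2KO, against 1780 to 1830 for WT, 1960 to 1990 for Id1KO and 1780 to 1800 for dKO, and 17 of 18 fell in Tet2KO against WT, with 16.2% of all genes lower, where Gp5 also fell. Car1, the most abundant, fell by 0.87 ± 0.029 and Car2 by 0.84 ± 0.024 on the log2 scale. The 12 mast cell, basophil and eosinophil genes summed to 586 to 592 CPM in Id1KO, against 501 to 520 for WT, 471 to 481 for Tet2KO and 401 to 410 for dKO. That sum was highest in Id1KO, as Pf4, Vwf and Itga2b were, but of the 10 tested genes of the list only Prg2 and Epx, genes of eosinophil granules, were called higher in Id1KO against WT, and Hdc was called lower. Prg2, the most abundant of them, rose by 0.44 ± 0.029 in Id1KO against WT and fell by 0.95 ± 0.03 in dKO against Id1KO. The mast cell and basophil genes Cpa3, Mcpt8, Fcer1a, Ms4a2, Hdc and Prss34 did not have their highest mean in Id1KO. Cpa3, for example, had 56.6 ± 0.673 CPM in Id1KO, 60.3 ± 3.57 in Tet2KO and 53.4 ± 1.84 in WT. Gzmb and Cd200r3 of the same list had their highest mean in Id1KO, at 5.85 ± 0.519 and 0.573 ± 0.163 CPM. In WT they had 5.5 ± 1.03 and 0.473 ± 0.191 CPM, and neither was called in Id1KO against WT. Tpsab1, a gene of mast cell granules, was at 0 in all libraries.

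Markers of endothelium, where Vwf and Fli1 are also transcribed, summed to 170 to 176 CPM in Id1KO, 190 to 195 in WT, 192 to 204 in dKO and 215 to 220 in Tet2KO. Of these 12 genes Cldn5 was at 0 in every library, Cdh5 had 0 to 3 counts, and Sox17 and Sox18 had fewer than 10. The endothelial sum was lowest in Id1KO, and most of it there came from Pecam1 (90.6 ± 3.2 CPM) and Eng (44.6 ± 0.912). Of the 8 tested genes of the list 1 was called in Id1KO against WT, Pecam1, the most abundant, which was lower. That is 12.5%, against 15.0% of all genes tested, and the median log2 fold change of the 8 was -0.05. The 13 stem cell genes summed to 309 to 311 CPM in Tet2KO, 289 to 296 in Id1KO, 283 to 292 in WT and 277 to 283 in dKO. The sums of the remaining lists were highest in Tet2KO. Neutrophil granule genes ran from 11600 to 15800 CPM, monocyte and dendritic genes from 1750 to 2230 and lymphoid genes from 28.8 to 54.3. The neutrophil sum was mostly Mpo, at 11100 ± 114 CPM in Tet2KO. In Tet2KO against WT, 5 neutrophil genes were called higher, and Camp, Ngp and Cebpe lower. Of the monocyte and dendritic genes, 4 were called higher, and F13a1 and Cx3cr1 lower. The shares called were 80.0% and 66.7%, against 32.8% of all genes. Genes that include Gata1, Gata2, F13a1 and Esam stand on both a lineage list and a list of another cell type. The part of other cell types in the levels of the 9 genes was not tested.

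**Figure D4:**
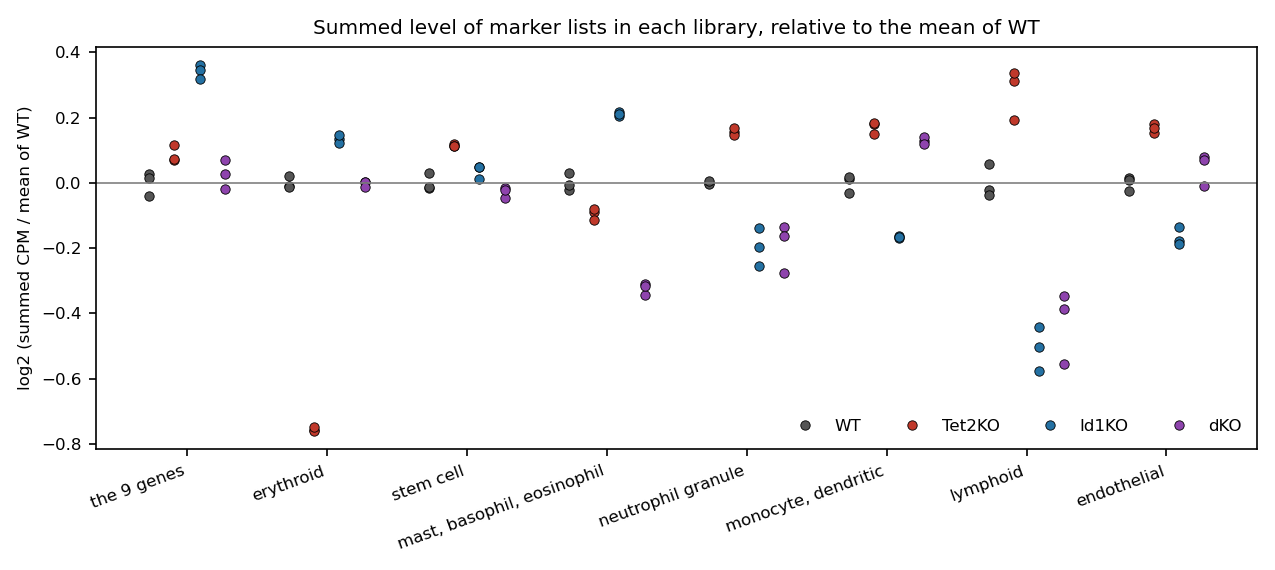
Summed CPM of the 9 genes and of 7 marker lists in each library, as log2 of the ratio to the mean of the WT libraries, with 3 points per genotype. The sums of the 9 genes and of the mast cell, basophil and eosinophil list, whose calls above WT there are the eosinophil genes Prg2 and Epx, are highest in Id1KO, and the erythroid list is lowest in Tet2KO (1060 to 1070 CPM against 1780 to 1830 in WT).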

How the data were processed

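The authors deposited estimated counts per gene for 12 libraries, not normalized. STAR, RSEM and the build mm10 are named in the submitters' processing notes, and the strand setting is not given in the sources used here. Per the labels' protocols, total RNA without ribosomal RNA was made into stranded libraries. Of the values, 5.06% were not whole, and all were rounded. All 55450 identifiers matched GENCODE M21 (GRCm38), from which positions and exonic lengths were taken.

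The edgeR filter filterByExpr, set to a minimum of 10 counts, kept 14346 genes, and TMM scaled the libraries. A single quasi-likelihood fit in edgeR of all 12 libraries gave each genotype 1 mean and left 8 residual degrees of freedom. Standard errors came from the F statistics. Two-sided tests of 6 contrasts were adjusted by the Benjamini-Hochberg method over all genes tested, with a threshold of 0.05. The interaction is dKO against Tet2KO less Id1KO against WT. Promoter windows came from RefSeq's table. Similar exons were sought with blast at 95% identity over at least 100 bases. The fit was tested on simulated data.

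The members and gene lists were chosen with earlier results of these data known. Genes set to be named were the 9 members, the 3 most abundant tested genes of each wider lineage list and the 2 most abundant of each other list, Tet2, Id1 and Kit, and the 2 genes nearest to each member in pattern. Not all of these are given values above: Stat5a, Stat5b and Itgb1, for example, were called in no comparison. Other genes, such as Runx1 and Nfe2, were named because they were called, or after their values were seen. Tried as alternatives were scaling by RLE or by the upper quartile, TMM without 3919 mitochondrial and small structural RNA genes, no filter, 10 counts in all 3 libraries of a genotype, only the libraries compared, DESeq2, a replicate block, libraries summed per genotype, Gp1bb summed with the genes that share its exon, and leaving out each library. R 4.3.3, Python 3.11.15, edgeR 4.0.16 and DESeq2 1.42.0 were used.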

Additional observations from a re-analysis of the deposited data

Results flagged for a closer look

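For 5 of the 8 tested genes the difference between Id1-null and Id1-intact labels was not the same beside Tet2KO as beside intact Tet2, by edgeR's test of the interaction. Itga2b had an interaction of -0.54 on the log2 scale: it was 0.40 higher in Id1KO than in WT and stood at -0.14 in dKO against Tet2KO. Pf4 had -0.52, with 0.82 and 0.30 in the same comparisons, and Vwf had -0.5, with 0.60 and 0.11. Itgb3 had -0.37, with 0.29 and -0.08, and Fli1 had -0.26, with 0.10 and -0.16. All 5 were still called in each of the 12 fits that left out 1 library. Dropping a library from a genotype does not test whether the 3 libraries of that genotype came from separate cell samples.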

How the results depend on the processing

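RLE scaling moved 36 of 36 levels by less than 1 SD and, like upper-quartile scaling, changed none of the members' calls. With libraries summed per genotype and additive labels (1 residual degree of freedom, equal label effects on both backgrounds, no interaction), 0 members were called in the 5 pairwise comparisons, 2, 0, 0, 0 and 2 wider list genes in Tet2KO, Id1KO and dKO against WT and dKO against Tet2KO and Id1KO, and 232, 7, 11, 7 and 232 of all genes. At an unadjusted p under 0.05 it gave 2, 2, 0, 2 and 2 members. Values that changed sign there were, in Tet2KO against WT, Itga2b -0.11 and Vwf -0.24; in Id1KO against WT, Gp9 -0.02 and Fli1 -0.03; in dKO against Tet2KO, Itga2b 0.13 and Itgb3 0.11; and in dKO against Id1KO, Itgb3 0.07 and Fli1 0.01. In dKO against WT, 2 members were called without a filter (Gp5 added, adjusted p 0.0442), 0 by edgeR with only the libraries compared and 0 by DESeq2, each with 2 at an unadjusted p under 0.05. DESeq2 called 1418 genes in Id1KO against WT, 1350 in the interaction and 24 wider list genes there, and lost Gp9 in dKO against Id1KO (0.147) and Gp5 in dKO against Tet2KO (0.0939).

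Leaving out 1 library gave 3 to 5, 4 to 4, 0 to 1, 2 to 4 and 4 to 6 members called in those 5 comparisons and 5 to 5 in the interaction. For wider lists the counts were 45 to 52, 20 to 29, 15 to 24, 39 to 48, 31 to 40 and 29 to 39, and for all genes 3808 to 4964, 1512 to 2386, 1999 to 2784, 2951 to 3847, 2109 to 2837 and 1582 to 2161. Changes of sign were confined to uncalled values: Itga2b ran from -0.03 to 0.07 and Gp1bb from -0.34 to 0.21 in dKO against WT, Gp1bb from -0.01 to 0.53 in dKO against Tet2KO and from -0.43 to 0.11 in the interaction, and Gp9 from -0.10 to 0.04 and Vwf from -0.06 to 0.06 in Tet2KO against WT. Where no cause follows from how an alternative was built, the cause was not tested.

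The titles' suffixes gave replicate numbers, and the labels do not say that a number marks a shared mouse, batch or day. Deviations of the 18 same-numbered pairs correlated from -0.0972 to 0.113, with 1 over 0.1, and those of other pairs from -0.104 to 0.174. For 4 of 12 libraries the own number correlated best in every other genotype. These values do not settle whether the numbers pair the samples, and the main fit had no replicate block. With a replicate block, 4, 4, 1, 3, 6 and 5 members were called, Gp5 in dKO against Tet2KO being lost (adjusted p 0.055), and 4523, 1952, 2565, 3592, 2576 and 1871 of all genes. Gp6, Gp1bb and Gp9 had the fewest counts of the members, and those of Gp6 were too few to test.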
